A study of Homo sapiens with 2 samples.

Results

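Chromosome 22 carried 1884 of the 105637 peak summits listed for an immunoprecipitation of Myocardin from A549 cells. Nearly all of the stretch that held summits carried low peak scores. The members are every summit on this chromosome, with no threshold on the score. Chromosome 22 itself was chosen by its low peak scores in an earlier look at the same list. Its scores against those of other chromosomes are therefore given as a description, with no test. A549 is a human lung adenocarcinoma line, and here it stably overexpressed MYOCD from the lentiviral vector pWPI. Chromatin of this line was precipitated with an anti-Myocardin antibody (1 library) or with IgG (1 library), so both antibodies met the same MYOCD overexpression and no unmodified A549 library is among the samples. The list ties no summit or score to either library. With no replicate, the intervals below cover counting error along 1 list and treat summits as independent. The depth of both libraries is unknown.

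Myocardin (MYOCD) coactivates the transcription of genes of the heart and of smooth muscle. It does not bind DNA by itself at its best-known targets but is held there by the serum response factor. A peak score ranks how far the reads at a summit rise above the background that a peak caller assumes there, so that the same pile of reads scores lower where the assumed background is higher. Chromosome 22 is acrocentric: its short arm is built of satellite repeats and ribosomal RNA genes that short reads do not place, and its long arm is rich in genes. Several muscle and cytoskeleton genes lie on the long arm, among them SMTN (smoothelin, a contractile smooth muscle protein), MYH9 (a nonmuscle myosin heavy chain), MB (myoglobin) and MRTFA, a relative of Myocardin that also acts through the serum response factor. No gene annotation or sequence of the assembly of these summits (GRCh37) was used, so no summit is assigned to any of these genes. Cytogenetic bands of GRCh37 serve as the landmarks.

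The scores of chromosome 22 were low from the 1st to the 99th percentile, though not in the few summits above it. The median score was 6.73 (exact binomial 95% interval of the median 6.54 to 6.93), against 7.85 (7.71 to 7.97) for chromosome 19, 8.59 (8.39 to 8.84) for chromosome 20 and 7.82 (7.38 to 8.25) for chromosome 21. The score has no stated unit and is the authors' own value per summit. Over all other nuclear chromosomes together the median was 8.56. Below the median, the lower quartile of chromosome 22 was 5.18 against 6.49 on the other nuclear chromosomes, a ratio of 0.798. Above it, the upper quartile was 9.17 against 12.2, a ratio of 0.754, and the 95th percentile 15.3 against 21.2, a ratio of 0.721. Against these chromosomes together the gap was narrower at both extremes, with a ratio of 0.938 at the 1st percentile and 0.858 at the 99th. At the 99th percentile the ratio was 0.962 to chromosome 19 and 0.861 to chromosome 20. Against chromosome 21 the gap was instead wider there, with a ratio of 0.656 after 0.842 at the 95th percentile. Above the 99th percentile the order partly turned. Scores of 36.1 or less made up 99.36% of summits on chromosome 22 and 99.57% on the other nuclear chromosomes together. The share was 99.76% on chromosome 19, 99.65% on chromosome 20 and 98.76% on chromosome 21. Scores of 50 or less made up 99.84% both on chromosome 22 and on the other nuclear chromosomes.

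**Figure D1:**
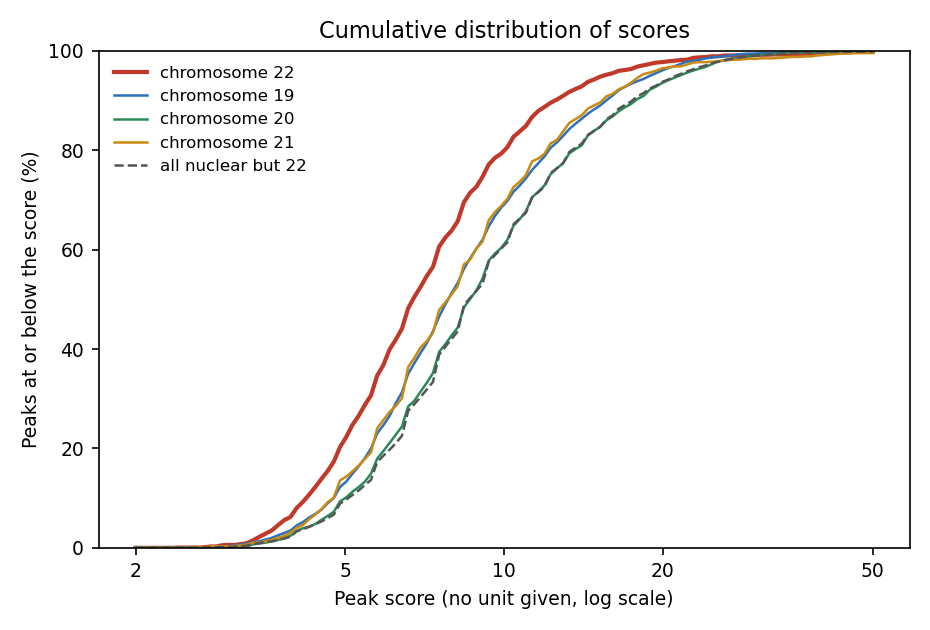
Cumulative percent of peaks (vertical axis) at or below each peak score (horizontal axis, log scale) for chromosomes 22, 19, 20 and 21 and for all other nuclear chromosomes together. The curve of chromosome 22 lies to the left of the others from its lower quartile (5.18) to its 95th percentile (15.3), and the curves of chromosomes 19 and 21 lie between it and that of chromosome 20.

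A high score is taken here as one at or above 12.2, the upper quartile of all 105629 nuclear summits. On chromosome 22, 205 of 1884 summits reached it, or 10.9% (exact Clopper-Pearson 95% interval 9.51 to 12.4%), where the whole nuclear list has 26.3% because 1692 summits tie at the threshold itself. The shares were 20.1% (18.98 to 21.3) on chromosome 19, 26.2% (24.7 to 27.6) on chromosome 20 and 20.3% (17.9 to 22.9) on chromosome 21. Of the summits of chromosome 22, 70.4% scored below the median of the list. The chromosome was selected on these values, and nothing further is read from them.

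The long arm was populated from within 22q11.1 to near its far end, and the short arm held no summit. No sequence or mappability was used, so whether a summit could be placed in the empty stretch was not tested. The stretch without a summit ran from the start of the chromosome to position 16055639, a length of 16.1 Mb that takes in the bands 22p13, 22p12, 22p11.2 and 22p11.1 and the start of 22q11.1. The first summit lay at 16055640 and the last at 51221932, on a chromosome of 51304566 bases. No later interval between neighbouring summits reached 1 Mb. The widest lay in 22q12.3, the band that also holds MYH9 and MB, and spanned 635 kb between 34315946 and 34951156. The next were 404 kb in 22q11.1 (16467794 to 16871352) and 374 kb in 22q12.3 (35080819 to 35454717). The 36 bins of 1 Mb between the first and the last summit all held summits, from 5 to 76 each. The densest were the bins from 37000001 to 38000000 with 76 summits, from 18000001 to 19000000 with 73 and from 38000001 to 39000000 with 73.

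Low scores held along the populated part of the arm apart from its first megabase. Of 34 bins with at least 20 summits, 33 had a median score below the list median of 8.50 (97.1%, Clopper-Pearson 84.7 to 99.9%). The same count was 38 of 55 on chromosome 19, 22 of 57 on chromosome 20, 14 of 18 on chromosome 21 and 750 of 1800 (41.7%) on all other nuclear chromosomes. Bin medians on chromosome 22 ran from 5.60 to 14.3, with a middle value of 6.65 against 8.10 on chromosome 19, 9.12 on chromosome 20 and 8.11 on chromosome 21. Both bins with fewer than 20 summits, from 33000001 to 34000000 (15 summits, median 8.16) and from 34000001 to 35000000 (5 summits, median 8.28), were also below the list median.

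The lowest bins were spread over the arm. The bin from 20000001 to 21000000, in 22q11.21, had a median of 5.60 over 57 summits, and only 2 of the 1834 bins of the list with at least 20 summits had a lower one. The bin from 43000001 to 44000000 had a median of 5.64 over 64 summits, and the bin from 48000001 to 49000000 a median of 5.95 over 55. Among the 100 bins with the lowest medians in the whole list, 22 lay on chromosome 22. These are 64.7% of its 34 bins and 22 of the 100, compared with 17 on chromosome 1 (10.4% of its 163 bins), 13 on chromosome 19 (23.6% of 55), 4 on chromosome 21 (22.2% of 18) and 2 on chromosome 20 (3.51% of 57).

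The first megabase with summits stood apart from the rest of the chromosome. The bin from 16000001 to 17000000, in the pericentromeric band 22q11.1, had a median score of 14.3 over 45 summits, with quartiles of 9.31 and 18.1. High scores made up 26 of these 45 summits (57.8%). Its summits lay close together, with a median of 1.29 kb to the nearest other summit against 7.05 kb over the whole chromosome, and it holds the 404 kb interval without a summit. Among bins of at least 20 summits, the next highest medians were 8.11 in the bin from 17000001 to 18000000 (57 summits) and 7.89 in the bin from 29000001 to 30000000 (53 summits). Without the first bin the median of chromosome 22 was 6.68.

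**Figure D2:**
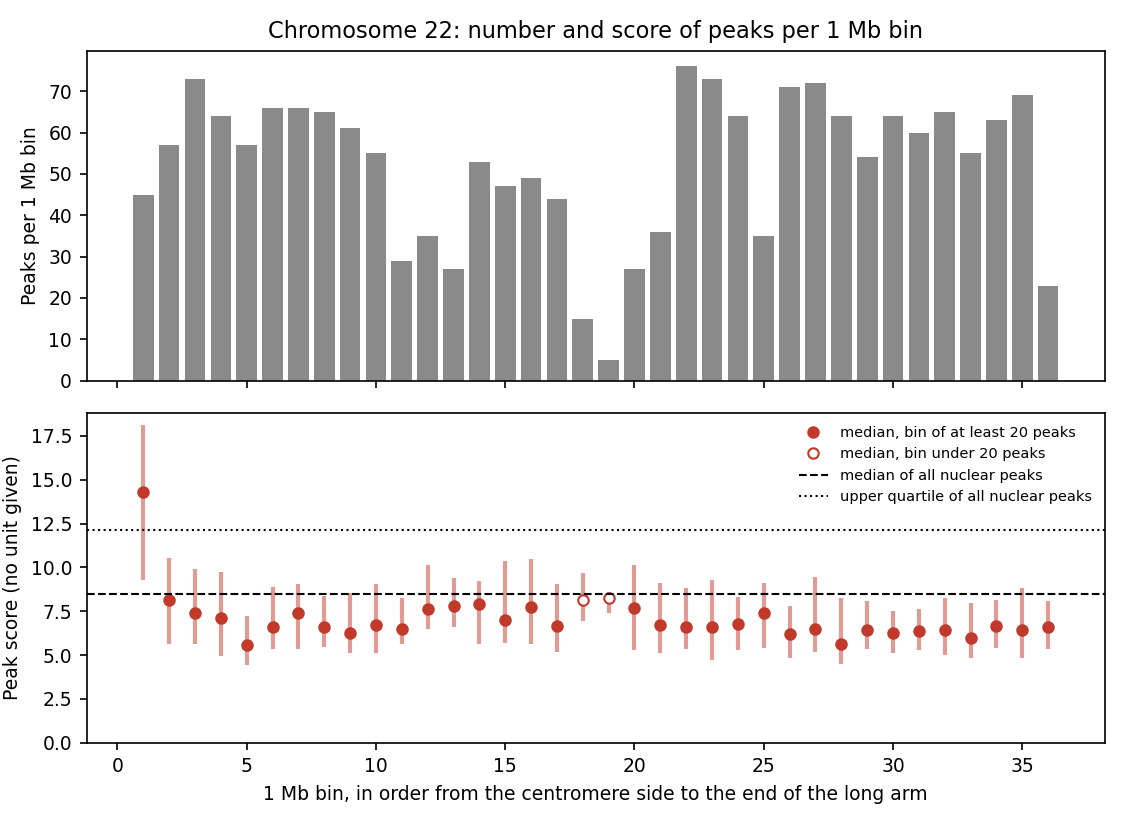
Number of peaks (upper panel) and peak score (lower panel: points are medians, bars span the lower to the upper quartile) in each of the 36 bins of 1 Mb of chromosome 22 that hold a summit, in order from the centromere side. The first bin (median 14.3) lies above the dotted upper quartile of the list, and the medians of all 35 later bins lie below the dashed list median of 8.50.

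By band, the share of high scores was highest beside the centromere and lowest near the far end of the arm. In 22q11.1, 33 of 99 summits were high (33.3%, 24.2 to 43.5%) and the median score was 10.02. In 22q11.21, the band of the DiGeorge syndrome deletion and its low copy repeats, 36 of 278 were high (12.9%, 9.24 to 17.5%), with a median of 6.52. In 22q11.22, which carries the immunoglobulin lambda light chain genes, 9 of 80 were high (11.25%) and in 22q11.23, which carries BCR, 11 of 150 (7.33%). The bands 22q12.1, 22q12.2 and 22q12.3 had 15 of 119, 18 of 134 and 12 of 163 high summits, with medians of 7.38, 7.37 and 7.17. SMTN and the tumour suppressor NF2 lie in 22q12.2. In 22q13.1 and 22q13.2 the counts were 19 of 201 and 17 of 211, with medians of 6.69 and 6.28. In 22q13.31 they were 21 of 254 (median 6.30), in 22q13.32 only 1 of 64 (1.56%, 0.0396 to 8.40%, median 6.21) and in 22q13.33, the terminal band with the synaptic gene SHANK3, 13 of 131 (median 6.56). Taken by region, 14.7% of the 607 summits in q11 were high (11.9 to 17.7), 10.8% of the 416 in q12 (8.0 to 14.2) and 8.25% of the 861 in q13 (6.50 to 10.3). The intervals of q11 and q13 do not overlap, and that of q12 overlaps both. This separation rests on the first bin. Without its 45 summits, 63 of 562 in q11 were high (8.72 to 14.1%), an interval that overlaps that of q13. In 22q11.1 alone 7 of the remaining 54 were high (12.96%, 5.37 to 24.9%), with a median score of 8.20.

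Low scores were found in light and in stained bands alike. In unstained bands, which tend to be gene-rich, 10.3% of 1148 summits of chromosome 22 were high and the median was 6.56, against 24.1% and 8.28 in unstained bands of all other nuclear chromosomes. On chromosomes 19, 20 and 21 the unstained bands had 14.4%, 24.5% and 14.96% of high summits. In bands of the class gpos50, of medium staining, 8.08% of 557 summits were high on chromosome 22 (median 6.74) and 29.3% on the other chromosomes (median 9.17). In the centromeric class, which on chromosome 22 is 22q11.1, the intervals overlapped. The median there was 10.02 (8.52 to 11.15) on chromosome 22 and 9.58 (9.22 to 10.2) on all other nuclear chromosomes, while chromosomes 19, 20 and 21 had 13.1 (22 summits), 10.07 (51) and 11.097 (33). High scores made up 33.3% on chromosome 22 (24.2 to 43.5), below the 36.9% on all other nuclear chromosomes (33.5 to 40.3) and the 50%, 39.2% and 45.5% on chromosomes 19, 20 and 21, again with overlapping intervals.

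The strongest summits of the chromosome were gathered in 22q11.1 and 22q11.21. Scores of 29.9 or less made up 99.10% of its summits and 99.02% on the other nuclear chromosomes together. Scores of 19.9 or less made up 97.7% and 93.7%. The highest score, 68.3, was at chr22:16423967 in 22q11.1 and ranked only 79 in the whole list. The next, 66.3, was at 18718131 in 22q11.21 (rank 85). A pair 3.82 kb apart in the same band, at 18880008 and 18883831, scored 52.0 and 46.1. Of the 10 strongest summits, only the one at 27169183 in 22q12.1, with a score of 46.1, lay outside 22q11.1 and 22q11.21. The remaining 5 were at 21538109 (43.4), 20656383 (40.8) and 21663564 (39.95) in 22q11.21 and at 16404552 (43.4) and 17048736 (39.6) in 22q11.1. These 2 bands held 20.01% of the summits of the chromosome but 14 of its 16 scores of at least 30, and 25 of its 42 scores of at least 20. Without the first bin they held 8 scores of at least 30 and 15 of at least 20. Beyond both bands 2 of 1507 summits reached 30. No IgG value, repeat annotation or mappability was at hand for any of these summits, and binding of Myocardin was not told apart from other signal there. At the other extreme, the lowest scores were 2.41 at 41851489 in 22q13.2, 2.64 at 49911072 in 22q13.33 and 2.70 at 31022967 in 22q12.2.

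Summits on chromosome 22 were spaced more widely than on chromosome 19. On the other nuclear chromosomes summits 1.5 to 5 kb from their nearest neighbour had a median score of 7.87, and those isolated by 20 kb or more one of 9.92. On chromosome 22 these medians were 6.11 and 7.37, a rise in the same direction. The median distance to the nearest other summit was 7.05 kb on chromosome 22, 4.84 kb on chromosome 19, 5.93 kb on chromosome 20 and 6.92 kb on chromosome 21. Fewer summits of chromosome 22 had their nearest neighbour at 1.5 to 5 kb (14.5%, 12.9 to 16.2%) than on chromosomes 19 (28.7%), 20 (21.8%) and 21 (19.96%). More had it at 5 to 20 kb, with 33.5% at 5 to 10 kb and 22.9% at 10 to 20 kb, where the other nuclear chromosomes had 26.1% and 18.2%. Summits isolated by 20 kb or more made up 9.61%, above the 4.48% on chromosome 19 and the 7.80% on chromosome 20 but below the 19.4% on chromosome 21 and the 17.7% on the other nuclear chromosomes together.

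At equal distance to the nearest summit the low scores remained. Summits were divided into 13 classes of distance, from under 0.5 kb to 50 kb and more. The median score of chromosome 22 was below that of chromosomes 19 and 20 in all 13 classes and below that of chromosome 21 in 12. The exception was the class of 3 to 4 kb, with a median of 7.09 over 46 summits on chromosome 22 and 6.47 over 46 on chromosome 21. The intervals there were 5.91 to 8.37 and 5.55 to 8.15. The 95% intervals of the medians were apart in 8 classes against chromosome 19 and in 9 against chromosome 20. Against chromosome 21, which has the fewest summits of the 4, they were apart in 2. Chromosome 22 was chosen on these scores, so the counts of separate intervals are a description and not a test.

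The size of the gap varied between classes. Among summits 10 to 20 kb from the nearest one, the median was 7.04 on chromosome 22 (431 summits, 6.53 to 7.37), 8.04 on chromosome 19 (674, 7.71 to 8.28), 9.26 on chromosome 20 (691, 9.22 to 10.2) and 8.28 on chromosome 21 (181, 7.37 to 8.80). High scores made up 14.8%, 22.7%, 34.6% and 20.4% of them. At 6 to 8 kb, the next largest class with 281 summits, 9.96% were high on chromosome 22 (6.72 to 14.1), against 24.5%, 25.9% and 21.6%. At 8 to 10 kb (192 summits) the share was 15.1% (10.4 to 20.97), and the interval of chromosome 21 (15 of 75 high, 11.6 to 30.8%) overlapped it. The class with the lowest share among those of at least 100 summits was that of 5 to 6 kb. There only 7 of 159 on chromosome 22 were high (4.40%, 1.79 to 8.86%), against 21.7% on chromosome 19 (17.7 to 26.1), 28.1% on chromosome 20 (23.1 to 33.4) and 17.02% on chromosome 21 (7.65 to 30.8). Pairs closer than 0.5 kb scored lowest on chromosome 22, with a median of 5.32 over 46 summits. At 50 kb or more only 25 summits were left, and their median of 8.28 (6.49 to 9.35) was not told apart from the 9.22 on chromosomes 20 and 21.

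**Figure D3:**
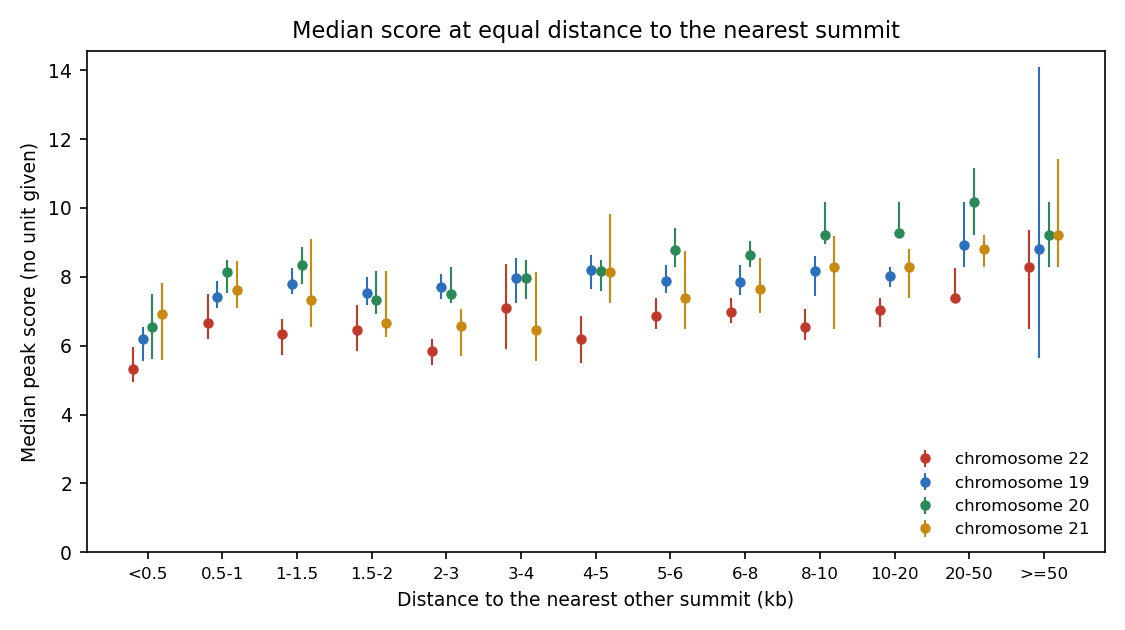
Median peak score (vertical axis, points; bars are exact binomial 95% intervals) in 13 classes of distance to the nearest other summit (horizontal axis, kb) on chromosomes 22, 19, 20 and 21. Chromosome 22 has the lowest point in 12 of the 13 classes, the exception being 3 to 4 kb, where chromosome 21 is lower.

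When the summits of the other chromosomes were weighted to the distances found on chromosome 22, the shares of high scores became 21.7% (20.4 to 23.0) on chromosome 19, 27.3% (25.8 to 28.8) on chromosome 20 and 19.5% (16.9 to 22.1) on chromosome 21, against 10.9% on chromosome 22. Weighting thus moved chromosomes 19 and 20 slightly away from chromosome 22 and chromosome 21 slightly towards it. Over all 24 nuclear chromosomes weighted in this way, chromosome 22 had the lowest share and chromosome 21 the next lowest. The corresponding weighted medians were 6.77 for chromosome 22, 7.94 for chromosome 19, 8.74 for chromosome 20 and 7.82 for chromosome 21.

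**Figure D4:**
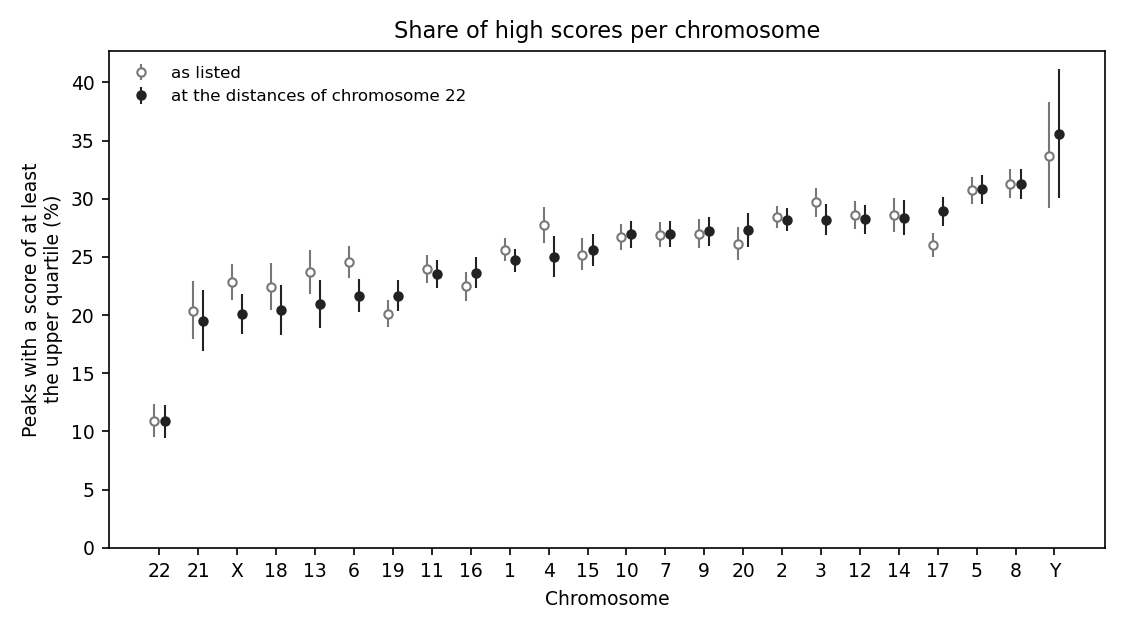
Percent of peaks with a score at or above the upper quartile of the list (vertical axis) on each nuclear chromosome, as listed (open points, Clopper-Pearson 95% intervals) and weighted to the distances of chromosome 22 (filled points, 95% intervals from binomial counting error). Chromosome 22 lies at 10.9% and chromosome 21, the next in order, at 19.5% after weighting.

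The deficit at equal distance also ran along the arm. From the shares of high scores per distance class on the other nuclear chromosomes, 498 of the summits of chromosome 22 would have been high, and 205 were, a ratio of 0.412. Among the 34 bins with at least 20 summits, the observed number was below this reference in 33. The corresponding counts were 33 of 55 bins on chromosome 19, 22 of 57 on chromosome 20, 13 of 18 on chromosome 21 and 847 of 1800 on the other nuclear chromosomes together. The exception was again the bin from 16000001 to 17000000, with 26 high summits against 10.8. The ratio of observed to reference number was 0.579 in q11 (0.441 without that bin), 0.385 in q12 and 0.312 in q13. In 22q11.1 it was 1.36 (0.521 without that bin), and in all bands beyond 22q11.21 together 0.338.

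At equal numbers of summits per megabase chromosome 22 was again low, but close to chromosome 19 where bins were dense. Among bins with 20 to 39 summits, all 7 on chromosome 22 had a median below that of the list, against 1 of 4 on chromosome 19, 3 of 15 on chromosome 20 and 8 of 11 on chromosome 21. On all other nuclear chromosomes together the count was 214 of 869. Among bins with 40 to 59 summits it was 9 of 10 on chromosome 22 and 165 of 375 on all other nuclear chromosomes. Chromosomes 19, 20 and 21 had 5 of 8, 3 of 5 and 1 of 2. Among bins with 60 to 79 summits, all 17 on chromosome 22 were below the list median, with bin medians from 5.64 to 7.37. On chromosome 19, 16 of 17 such bins were also below it, with a middle value of 6.88 against 6.59 on chromosome 22. Chromosome 20 had 4 of 18 such bins below the list median and chromosome 21 had 1 of 1. All other nuclear chromosomes together had 163 of 263 below it. Across the 34 bins of chromosome 22 the number of summits and the median score were weakly and inversely related (Pearson's r = -0.25, Spearman's rho = -0.34, bins of 1 list, a description only).

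Many summits of the list share exactly the same score. A ladder of 19 scores from 3.29 to 20.8 is each held by at least 150 summits, and 29.4% of nuclear summits stand on it. On chromosome 22 only 243 summits did (12.9%, 11.4 to 14.5%), compared with 8.07% on chromosome 19, 18.8% on chromosome 20 and 27.2% on chromosome 21. The steps most used on chromosome 22 were 7.37 (40 summits), 6.49 (37), 5.64 (32) and 8.28 (30). In the list as a whole they were 7.37 (4026), 8.28 (4016) and 6.49 (3569). Low steps were more frequent only among the ladder summits, where 5.64 made up 13.2% on chromosome 22 and 8.27% in the list. Chromosome 22 held 1.94% of all summits at 3.29 and 1.79% at 4.04, close to its 1.78% of the whole list. It held less of the higher steps, with 1.09% at 4.82, 1.24% at 5.64, 0.355% at 12.2 and 0.323% at 14.2. None of the 326 summits at 18.6 lay on chromosome 22, and a count of 0 allows a share of up to 0.920% (3 counts, counting error only).

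Among isolated summits, ladder scores were about as frequent on chromosome 22 as on chromosome 19 and less frequent than on the other chromosomes compared. Of 181 summits of chromosome 22 with no other within 20 kb, 27.6% had a ladder score (21.3 to 34.7%), against 29.8% of 208 on chromosome 19, 62.4% of 290 on chromosome 20 and 67.5% of 203 on chromosome 21. At 1.5 to 5 kb the shares were 2.56% on chromosome 22 (1.04 to 5.21) and 3.98%, 5.69% and 11.005% on chromosomes 19, 20 and 21, and 9.52% on all other nuclear chromosomes. The isolated summits off the ladder had a median score of 7.68 on chromosome 22 (131 summits, 7.10 to 8.52), 9.82 on chromosome 19 (146, 8.48 to 11.3), 13.5 on chromosome 20 (109, 10.6 to 15.6), 10.8 on chromosome 21 (66, 9.22 to 12.7) and 15.1 on all other nuclear chromosomes (5831 summits). Isolated summits on the ladder differed less, with medians of 7.37 on chromosome 22 (6.49 to 8.28), 8.28 on chromosomes 19 and 21 and 9.22 on chromosome 20. Isolated summits that were off the ladder and below the list median made up 42.5% of the isolated ones on chromosome 22 and 6.61% on all other nuclear chromosomes. Chromosome 19 was nearer to chromosome 22 in this respect, at 29.3%, while chromosomes 20 and 21 had 10% and 8.87%.

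**Figure D5:**
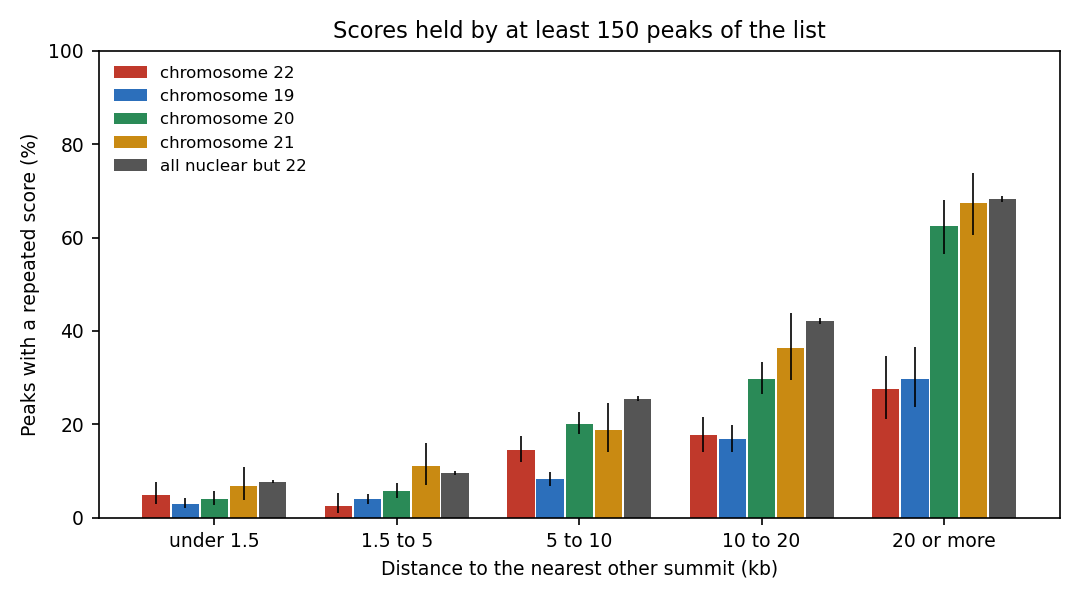
Percent of peaks with a score shared by at least 150 peaks of the list (bars; error bars are Clopper-Pearson 95% intervals) by distance to the nearest other summit in kb, on chromosomes 22, 19, 20 and 21 and on all other nuclear chromosomes together. At 20 kb or more, chromosomes 22 and 19 stand at 27.6% and 29.8% and the others at 62.4% or more.

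Ladder scores were not rare everywhere on chromosome 22. They made up 9 of 15 summits in the bin from 33000001 to 34000000 and 4 of 5 in the bin from 34000001 to 35000000, the sparse part of 22q12.3, where the median distance to the nearest summit was 43.4 and 62.0 kb. They also made up 48.3% of 29 summits in the bin from 26000001 to 27000000 and 45.7% of 35 in the bin from 27000001 to 28000000, in 22q12.1. In the bin from 50000001 to 51000000 in 22q13.33 none of 69 summits had one, and in the bin from 19000001 to 20000000 only 1 of 64 did. In place of the ladder, 47.7% of the summits of chromosome 22 had a score held by 10 to 49 summits of the list, compared with 34.2% on the other nuclear chromosomes. Their median score was 6.95 against 8.85. Scores held by 2 to 9 summits had a median of 5.45 on chromosome 22 and 10.01 on the other nuclear chromosomes. The low scores were therefore not limited to summits on the ladder or off it.

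Base composition differs between chromosomes and was looked at through promoters, since no sequence under the summits was used. The 668 promoters of chromosome 22 in a RefSeq set (GRCh38.p14, 250 bases before to 50 after each gene start) had a median GC content of 63%, the highest after chromosome 16 (63.3%) among 21 autosomes, and those of chromosomes 19, 20 and 21 had 62.7%, 59% and 57.5%. Across these 21 autosomes, promoter GC content and the distance-weighted share of high scores were hardly related (Pearson's r = -0.13, Spearman's rho = -0.05, and r = 0.19 without chromosome 22; a description over chromosomes of 1 list). The weighted share was 23.7% on chromosome 16. The GC values describe promoters in another assembly, not the sequence under the summits. The part of GC content, copy number, mappability and of the background that the peak caller assumed in the low scores of chromosome 22 was not tested.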

How the data were processed

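Chromatin of A549 cells overexpressing MYOCD was immunoprecipitated with anti-Myocardin or IgG, 1 library each, per the labels. The authors deposited 1 list whose rows hold a position, a strand and a peak score, per the file headers. Every row is 1 bp wide, and no column is tied to a sample. MACS appears in the name of this list. Version, threshold, control, aligner and the handling of PCR duplicates are not stated in the sources. CASAVA 1.4 and the assemblies mm9 and GRCh38.p12 are named in the submitters' processing notes. On chromosome 22, 37 summits lie past the end of GRCh38, 117 past the end of hg18 and 0 past that of GRCh37, and mm9 has no such chromosome. Positions are therefore printed in GRCh37, 1-based.

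Chromosome lengths came from GenomeInfoDb 1.38.1 and bands from circlize 0.4.16. Analyses ran in Python 3.11.15 with pandas 2.3.3 and scipy 1.17.1. The 8 mitochondrial summits were left out of all thresholds. Distance classes were divided at 0.5, 1, 1.5, 2, 3, 4, 5, 6, 8, 10, 20 and 50 kb. Weighted values use the shares of chromosome 22 summits per class, and reference numbers use the class shares of all other nuclear chromosomes. Bins are named where they hold most summits or, among those of at least 20 summits, have the 3 highest or lowest medians. Summits are named where they have the 10 highest or 3 lowest scores. Other bins were named after their values were seen. Chromosome, comparisons and classes were chosen with earlier results of this list known. The weighting was run on simulated lists with scores redrawn within the same distance classes. Such lists check the calculation only and not the choice of classes. Promoter sequences of chromosome 8 were not used here. Planned steps that need GRCh37 sequence or annotation were not run.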

Additional observations from a re-analysis of the deposited data

How the results depend on the processing

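Of 34 alternatives over 10 results on the whole chromosome, 28 stayed within the 95% interval of the value. For the weighted medians this interval was borrowed: that of the unweighted median was moved onto the weighted one. None of the 34 reversed the direction of its result. Chromosome 22 was chosen for its low scores, so this count does not add support for them. The share of high scores on chromosome 22, 0.414 times that of the list, was 0.361 times for the top 10% of scores and 0.591 times for the top 50%. The median score was 7.34 among summits with no other within 10 kb. Matched on summits per 1 Mb bin, the share of high scores was 18.4% on chromosome 19 and 29.8% on chromosome 20. Repeated scores, 0.438 times as frequent as in the list, were 0.585 times as frequent when any score held by at least 50 summits was counted. Without the first bin, a choice made after seeing the data, the share of high scores fell to 63 of 562 summits in 22q11 and to 12.96% in 22q11.1. For these departures the cause was not tested. Bins of 500 kb or 2 Mb had a median below that of the list in 53 of 55 and 17 of 18 cases. Among the 34, the 6 alternatives on the first bin and on scores tied at the threshold were added after seeing the data. There was no replicate to leave out. No paired analysis was possible because no value is tied to a library. The list holds no read counts, so what depth limits is unknown.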
